A study of Mus musculus with 8 samples.

Results

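The FLRT, latrophilin and teneurin genes encode 3 families of neuronal surface proteins that bind one another across the gap between cells. The 10 genes Flrt1 to Flrt3, Adgrl1 to Adgrl3 and Tenm1 to Tenm4 were found by symbol among the 56576 genes of the deposited table, each with 1 entry. They were followed in ribosome-bound RNA from cortical synaptosomes of mice at postnatal day 15. Controls, with the genotype Lhx6-Cre;ErbB4+/+;Rpl22HA/HA, gave 4 libraries. The conditional mutants, which lack Erbb4 in the Cre lineage and have the genotype Lhx6-Cre;ErbB4F/F;Rpl22HA/HA, also gave 4. Both genotypes carried Lhx6-Cre, a driver for interneurons that arise in the medial ganglionic eminence or the preoptic area, and both carried the HA-tagged ribosomal protein Rpl22 that Cre switches on and that served to pull the RNA down. Lhx6 marks the whole lineage, so the RNA was not restricted to one interneuron class. The methods give 4 biological replicates per genotype. The control replicates have the numbers 1, 3, 4 and 5, and the mutant replicates 2, 3, 4 and 5.

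FLRTs are membrane proteins with leucine-rich repeats outside the cell, and they bind both latrophilins and the Unc5 family of netrin receptors. Latrophilins are adhesion G protein-coupled receptors, and teneurins are very large membrane proteins that bind latrophilins at a site distinct from the FLRT site. Complexes of the 3 families are known to act in axon guidance, cell migration and the choice and assembly of synapses.

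At this depth, the 10 genes were all measured in every library, and none met the call rule between genotypes. That rule, taken from the study, asked for an unadjusted p up to 0.05 together with a change of 1.5-fold or more, here in a limma fit of log2(normalized count + 1). It was met by 0 of 10, against 7.15% of the 31171 genes tested, of which 3.17% were called lower and 3.98% higher. An unadjusted p under 0.05 was found for 1 of 10 (Flrt1), against 8.33% of all genes, and an adjusted p under 0.05 for 0 of 10, against 0.0449%. The edgeR quasi-likelihood test and DESeq2, run on the reads recovered from the values, also called 0 of 10, where they called 7.31% and 9.09% of all genes. The log2 fold change was below 0 for 6 of the 10 and above 0 for 4, with a median of -0.20, and 46.6% of all genes tested were below 0, with a median of 0.06. The 95% interval of the fold change included 1 for 9 of the 10, with Flrt1 as the exception. The intervals were wide, and for 10 of the 10 they reached a 1.5-fold difference in at least 1 direction.

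The genotype labels were checked on the targeted gene. Erbb4, the neuregulin receptor deleted in the mutants, had 1640, 5377, 4306 and 3034 normalized counts in control replicates 1, 3, 4 and 5 and 1711, 1648, 1233 and 1048 in mutant replicates 2, 3, 4 and 5. Its log2 fold change was -1.25 (SE 0.34, limma Benjamini-Hochberg adjusted p = 0.580), which met the call rule on the unadjusted p. The library labelled control replicate 1 lay under mutant replicates 2 and 3 for this gene, and the log2 fold change of each of the 10 genes is given below with and without it. Lhx6, the driver gene of the Cre line, had 701 to 1781 normalized counts in controls and 532 to 964 in mutants (log2 fold change -0.69), and Rpl22 had 542 to 1358 and 400 to 695 (log2 fold change -0.47), and neither was called. Libraries held 51010687 to 80226984 reads on genes, and the 10 genes had 114 to 14867 reads per library. The study describes more than one sequencing batch, the labels assign no library to one, and values within batches were therefore not given.

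Per kilobase of the longest coding transcript, the FLRTs Flrt2 and Flrt3 had the highest mean levels and the teneurin Tenm3 the lowest in both genotypes. Mean levels over the 8 libraries were 1849 normalized counts per kilobase for Flrt2, 1683 for Flrt3, 1038 for Adgrl1, 855 for Adgrl3 and 412 for Flrt1. They were 311 for Tenm1, 284 for Adgrl2, 256 for Tenm4, 247 for Tenm2 and 82.8 for Tenm3. Flrt2 lay at the 87.5th percentile of the tested genes with a transcript length and Tenm3 at the 29.5th. In controls the ranges of neighbours in this order overlapped at every step except that from Tenm2 (193 to 342) to Tenm3 (17.3 to 114). In mutants Adgrl3 (809 to 1125) and Flrt1 (315 to 358.5) did not overlap either. The order also differed between genotypes. Control means put Flrt3 (2007) before Flrt2 (1781), with 2 controls in each order, and Tenm2 (273) and Tenm4 (264) before Adgrl2 (239). Mutant means put Flrt2 (1917) before Flrt3 (1358) and Adgrl3 (950.3) before Adgrl1 (885). The order depends on the length used as well. With the union of all annotated exons, Flrt1 came before Adgrl3, and Adgrl2 moved from rank 7 to rank 9. By the mean of 8 libraries, Flrt2, Flrt3 and Adgrl1 came first and Tenm3 last with both lengths. Reads had been counted over the constitutive parts of genes alone, and neither length is the length of those parts. The order, the percentiles and the family shares are therefore approximate.

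**Figure D1:**
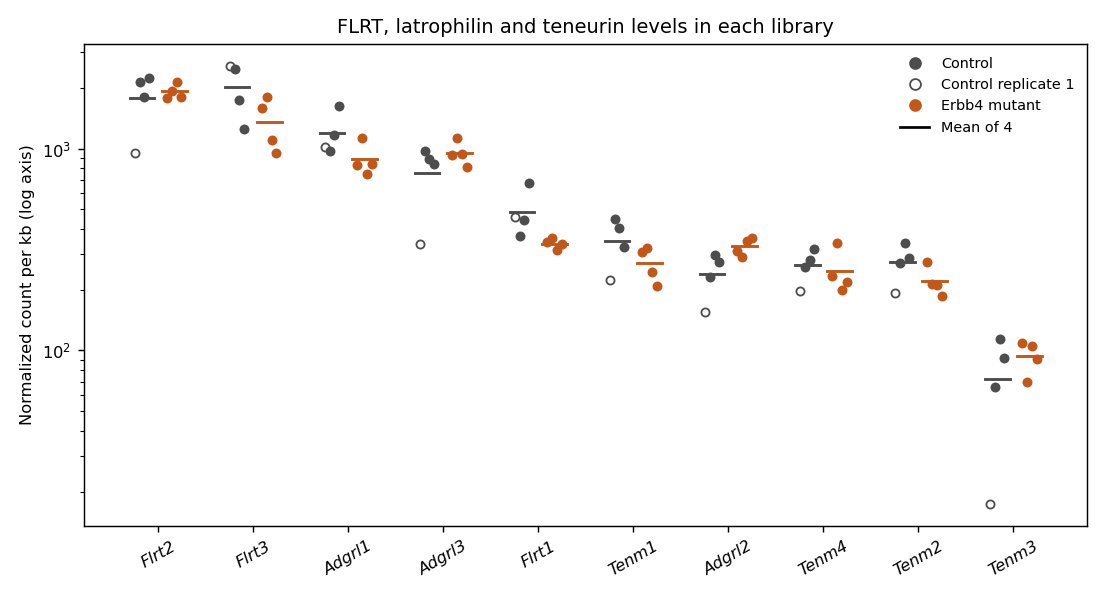
Normalized counts per kilobase of the longest coding transcript for the 10 genes (log axis), one point per library, controls and Erbb4 mutants side by side. Flrt2 and Flrt3 lie at the top, Tenm3 lies at the bottom, and its lowest point (17.3) is the library labelled control replicate 1, drawn as an open circle for every gene, with short lines for the mean of 4 libraries.

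Flrt1 (chromosome 19 of mm10, 7092014 to 7105733, minus strand) is a small gene whose whole coding sequence lies in 1 exon, as in the other FLRTs. It had 2683, 2155, 2612 and 3968 normalized counts in control replicates 1, 3, 4 and 5 and 2021, 2105, 1852 and 1973 in mutant replicates 2, 3, 4 and 5. All 4 mutants lay below all 4 controls, as for 2.17% of all genes tested. It was the only one of the 10 whose genotypes did not overlap in either direction, which held for 4.93% of all genes. The gap between the lowest control and the highest mutant was narrow, and the highest control was replicate 5. Means were 2854 ± 778 (SD, n = 4) and 1988 ± 106 (SD, n = 4). The fold change was 0.714 (95% interval 0.517 to 0.986, log2 -0.49, SE 0.21), with a limma adjusted p of 0.580, and it missed the fold of the call rule. The log2 value was -0.50 without the library labelled control replicate 1 and -0.32 without control replicate 5. The unadjusted p was above 0.05 in 11 of 21 alternatives, among them TMM and quantile normalization, limma without trend and 7 of the 8 fits that left out a library.

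Flrt2 (chromosome 12, 95692225 to 95785215, plus strand), a ligand of Unc5 receptors as well as of latrophilins, had the highest level per kilobase of the 10 in the mean of all libraries and in mutants, and came after Flrt3 in the control mean. It had 6746, 15135, 12765 and 15941 normalized counts in the controls and 12671, 13718, 15243 and 12798 in the mutants, in the same order of replicates. The library labelled control replicate 1 stood at 46.2% of the mean of the other controls, and all other libraries lay between 12671 and 15941. Means were 12647 ± 4159 and 13607 ± 1186 (SD, n = 4 each), and the fold change was 1.13 (95% interval 0.749 to 1.71, limma adjusted p = 0.828). Without that library the log2 fold change went from 0.18 to -0.10.

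Flrt3 (chromosome 2, 140650916 to 140671476, minus strand), the FLRT best known as a postsynaptic partner of latrophilins, had 10204, 9845, 6897 and 4981 normalized counts in controls and 6290, 7180, 4361 and 3773 in mutants. Control replicates 1 and 3 were the highest of all libraries, and control replicate 5 lay under mutant replicates 2 and 3, so the groups overlapped. Means were 7982 ± 2490 and 5401 ± 1601 (SD, n = 4 each). The fold change was 0.681 (95% interval 0.439 to 1.06, log2 -0.55, SE 0.29), with a limma adjusted p of 0.581. The library labelled control replicate 1 was the highest of all, and the log2 value was -0.42 without it.

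The 3 FLRTs together gave 3973 to 4974 normalized counts per kilobase in controls and 3087 to 4096 in mutants, ranges that overlapped. Flrt3 made up 30.01 to 64.6% of this sum in controls and 30.7 to 44.1% in mutants, and Flrt2 23.9 to 53.8% and 47.2 to 60.3%. The highest share of Flrt3 and the lowest of Flrt2 were both in the library labelled control replicate 1, and the other controls had at most 49.8% of Flrt3 and at least 42.9% of Flrt2.

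Adgrl1 (latrophilin-1, chromosome 8, 83900098 to 83941953, plus strand) encodes the receptor through which latrophilins were identified, as the binding protein of alpha-latrotoxin. It had 8298, 7911, 9539 and 13268 normalized counts in controls and 6773, 9178, 6142 and 6854 in mutants. Mutant replicate 3 lay above 2 of the controls and the other 3 mutants below all of them. Means were 9754 ± 2444 and 7237 ± 1333 (SD, n = 4 each), a fold change of 0.749 (95% interval 0.536 to 1.05, log2 -0.42, SE 0.22, limma adjusted p = 0.581). The log2 value was -0.48 without the library labelled control replicate 1 and -0.26 without control replicate 5.

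Adgrl2 (latrophilin-2, chromosome 3, 148815583 to 148989484, minus strand), known for a part in the target choice of hippocampal axons, had 937, 1395, 1791 and 1667 normalized counts in controls and 1887, 1765, 2116 and 2189 in mutants. Control replicate 4 lay just above mutant replicate 3, and the groups otherwise did not overlap. Means were 1447 ± 378 and 1989 ± 197 (SD, n = 4 each). The fold change was 1.41 (95% interval 0.988 to 2.01, log2 0.50, SE 0.23, limma adjusted p = 0.580). Without the library labelled control replicate 1 its log2 fold change was 0.30.

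Adgrl3 (latrophilin-3, chromosome 5, 81020137 to 81825133, plus strand), a receptor for Flrt3 and teneurins, had 2251, 6488, 5938 and 5627 normalized counts in controls and 6215, 7527, 6277 and 5412 in mutants. Control replicate 1 was at 37.4% of the mean of the other controls, whose range the mutants overlapped. The fold change was 1.34 (95% interval 0.831 to 2.17, log2 0.43, SE 0.31, limma adjusted p = 0.651), and the log2 value was 0.07 without that library.

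The make-up of the latrophilin sum was also looked at. Of the summed level per kilobase of the 3 latrophilins, Adgrl1 made up 67.4, 44.6, 49.6 and 59.2% in control replicates 1, 3, 4 and 5 and 40.02, 44.2, 36.8 and 41.7% in mutant replicates 2, 3, 4 and 5. All mutants lay below all controls, although the nearest values, 44.6% and 44.2%, almost met. The ranges were also apart with exon-union lengths (66.5 to 83.4% against 58.7 to 66.1%) and with no length correction (50.1 to 72.2% against 42.3 to 49.7%). These versions rescale the same counts by a constant per gene, so they are not separate evidence. The ratio of Adgrl2 to Adgrl1 per kilobase was 0.153, 0.238, 0.254 and 0.170 in controls and 0.377, 0.260, 0.466 and 0.432 in mutants. Its means were 0.204 ± 0.050 and 0.384 ± 0.090 (SD, n = 4 each), a log2 difference of 0.91 (SE 0.26), or 0.79 without the library labelled control replicate 1. The genotypes did not overlap for 1 of 12 within-family ratios. Among single genes 4.93% do not overlap, and the share among ratios of gene pairs was not computed. Both this ratio and the Adgrl1 share were singled out after their values were seen and are given as descriptions, without a test. The summed latrophilin level itself was 1506 to 2739 per kilobase in controls and 2008 to 2539 in mutants.

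**Figure D2:**
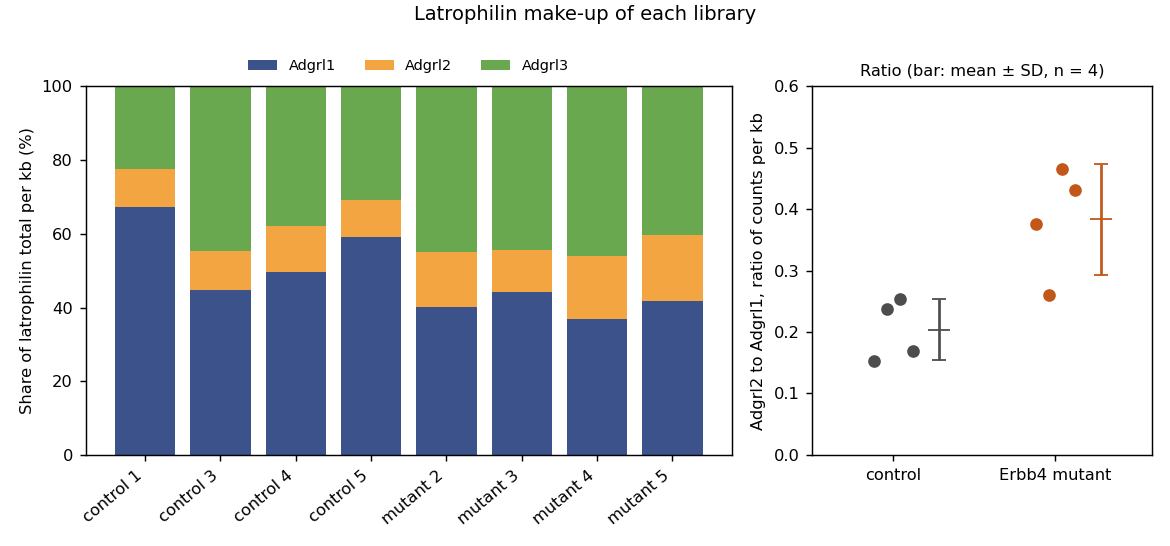
Share of the summed latrophilin level per kilobase (percent) held by Adgrl1, Adgrl2 and Adgrl3 in each library, controls against Erbb4 mutants. Shares are drawn as stacked bars. The Adgrl1 parts of the mutant bars (36.8 to 44.2%) are smaller than those of the controls (44.6 to 67.4%), and the shares of Adgrl2 and Adgrl3 overlap between genotypes. A second panel shows the ratio of Adgrl2 to Adgrl1 per kilobase as points, with mean ± SD (n = 4).

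Tenm1 (chromosome X, 42532405 to 43429127, minus strand), the X-linked teneurin, had the highest level per kilobase of its family. It had 2883, 5739, 5190 and 4194 normalized counts in controls and 3977, 4164, 3161 and 2699 in mutants. The mutants lay below 3 of the 4 controls, and the library labelled control replicate 1 lay among them. The fold change was 0.791 (95% interval 0.541 to 1.16, log2 -0.34, SE 0.25, limma adjusted p = 0.651). Without that library the log2 value was -0.54, still short of the fold of the call rule, and it was -0.20 without control replicate 3 and -0.22 without mutant replicate 5.

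Tenm2 (chromosome 11, 36006656 to 36944248, minus strand), also known as a ligand of latrophilin-1, had 1913, 2685, 3390 and 2834 normalized counts in controls and 2718, 2104, 2078 and 1840 in mutants. Control replicate 1 was again the lowest control, and the log2 fold change was -0.29 (SE 0.22, fold 0.816, 95% interval 0.581 to 1.15, limma adjusted p = 0.657), or -0.45 without it and -0.18 without control replicate 4.

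Tenm3 (chromosome 8, 48225665 to 48674690, minus strand), known for matching pre- and postsynaptic cells in hippocampal and visual circuits, was the lowest of the 10. It had 155, 591, 1017 and 820 normalized counts in controls and 976, 627, 943 and 809 in mutants. Control replicate 1, with 114 reads, stood at 19.2% of the mean of the other controls, and the remaining 7 libraries of both genotypes shared one range. The log2 fold change was 0.65 (SE 0.50, fold 1.57, 95% interval 0.726 to 3.39, limma adjusted p = 0.665), and it was 0.065 without that library.

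Tenm4 (chromosome 7, 96171240 to 96911090, plus strand), which is also required for myelination in the central nervous system, had 2598, 3429, 3712 and 4189 normalized counts in controls and 3087, 4476, 2630 and 2881 in mutants. The groups overlapped over nearly their whole ranges (fold 0.932, 95% interval 0.659 to 1.32, limma adjusted p = 0.891). Its log2 value of -0.10 lay between -0.26 (without mutant replicate 3) and -0.0051 (without control replicate 5) when single libraries were left out, and was -0.23 without the library labelled control replicate 1. The summed teneurin level was 632 to 1140 per kilobase in controls and 704 to 945 in mutants.

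The library labelled control replicate 1 was the lowest control for 7 of the 10 genes, Flrt2, Adgrl2, Adgrl3 and all 4 teneurins, and the highest control for Flrt3. The standard deviation was larger in controls than in mutants for 9 of the 10, with Tenm4 as the exception. This library also had the highest summed oligodendrocyte markers (662317, against 225751 to 354923 normalized counts in the other controls), astrocyte markers (235313, against 130690 to 181142) and microglia markers (46403, against 23493 to 41129). It had the lowest summed oligodendrocyte precursor markers (26940, against 27159 to 33293 in the other controls) and endothelial and mural markers (168896, against 184584 to 266864). It had the fewest genes above 0, 28247 against 31141 to 34364 in the other 7 libraries. Their part in the values of the 10 genes was not tested.

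**Figure D3:**
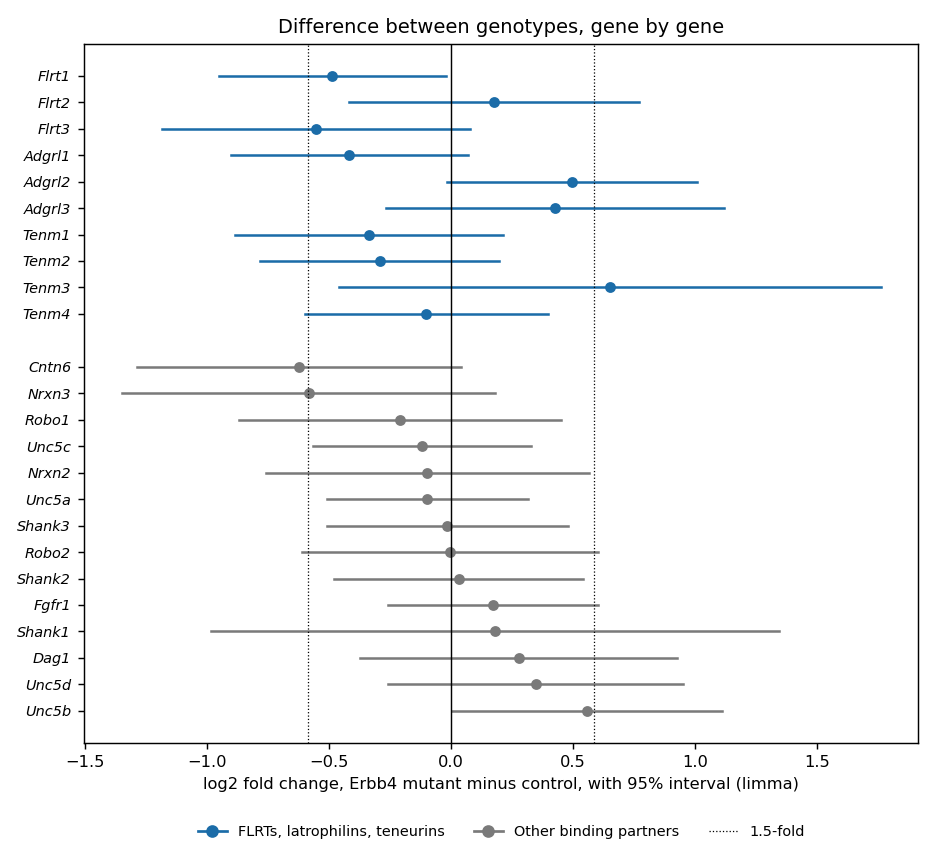
Log2 fold change of mutants over controls (points) with 95% intervals from limma (lines) for the 10 genes in blue and 14 binding partners, described further on, in grey, with dotted lines at a 1.5-fold difference. Among the 10 genes the interval leaves out 0 for Flrt1 alone and is widest for Tenm3, and among the partners it leaves out 0 for Unc5b alone.

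Some of the 10 genes lie on top of other transcribed units, and the library kit does not mark strand. Flrt1 lies inside Macrod1 and Flrt3 inside Macrod2, both on the opposite strand and with 0 shared exonic bases. Macrod1 had 237 to 618 normalized counts in controls and 222 to 433 in mutants, and Macrod2 1494 to 3671 and 1572 to 2123. Adgrl1 shares 1107 exonic bases with the antisense gene Gm10644, which had 245 to 850 normalized counts in controls and 482 to 535 in mutants, so reads of the pair cannot be told apart there. Entries without a symbol also span an exon of Adgrl3, Tenm3 and Tenm4. The one at Adgrl3 had 716 to 1148 normalized counts in controls and 749 to 1368 in mutants, and the one at Tenm3 2.0 to 21.6 and 1.98 to 45.3. Those at Tenm4 had 156 to 273 and 87.3 to 118, and 52.3 to 312 and 78.7 to 99.2. How many exonic bases they share with the genes was not computed. No 50-base stretch was shared between the transcripts of any of the 45 pairs of the 10 genes.

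Apart from these, the introns of the large genes held 80 entries of the table that carry no gene symbol. Of these, 4 were annotated as genes still to be experimentally examined, 3 matched another annotated gene and 73 matched none at 50% overlap. Tenm2, which spans 938 kilobases, held 21 of them, and their summed count averaged 337% of its own count. Their sum was 8014, 8686, 8166 and 9203 normalized counts in controls and 10658, 11345, 5417 and 4471 in mutants, so the mutants lay on both sides of the controls. The sum was 180% of the gene's own count for Tenm3, 84.7% for Tenm4, 70.6% for Adgrl3, 21.9% for Adgrl2, 13.3% for Tenm1 and 7.10% for Flrt2. Flrt1, Flrt3 and Adgrl1, which span 13.7, 20.6 and 41.9 kilobases, held none. These sums are not corrected for length. The entries covered 65.7 kilobases in Tenm2 and 30.7 in Tenm3, at 125.5 and 43.4 normalized counts per kilobase. The genes themselves had 247 and 82.8 per kilobase of the longest coding transcript. The counts of the 10 genes do not include these entries.

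**Figure D4:**
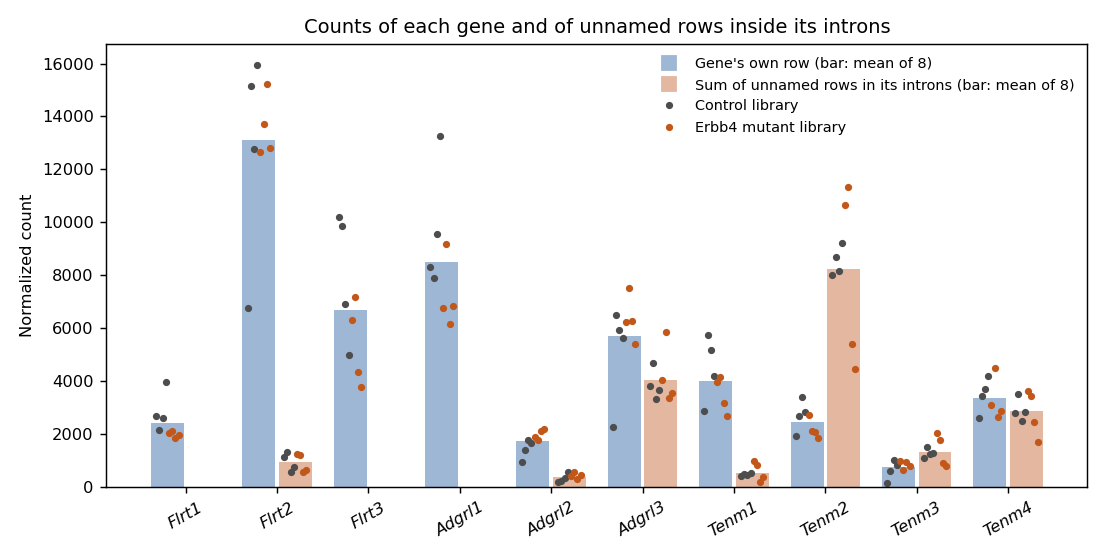
Normalized counts of each gene and the sum of the symbol-less entries inside its introns, with bars for the mean of 8 libraries and points for single libraries. In Tenm2 and Tenm3 the intronic sum is larger than the gene's own count, at 337% and 180% of it, and Flrt1, Flrt3 and Adgrl1 have none. Counts are not corrected for length.

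A list of 14 known binding partners was measured beside them: Unc5a to Unc5d, Robo1, Robo2 and Fgfr1 for the FLRTs, Nrxn2, Nrxn3, Cntn6 and Shank1 to Shank3 for the latrophilins, and Dag1 for the teneurins. In the limma fit 0 of 14 were called, 8 had a log2 fold change below 0 and 6 above, and the median was -0.01. Unc5b, a netrin receptor, had 1954, 4258, 4147 and 3082 normalized counts in controls and 4631, 5205, 4270 and 4832 in mutants. All its mutants lay above all controls, as for 2.76% of all genes, by a margin that is narrow at 4258 against 4270 (fold 1.47, log2 0.56, limma adjusted p = 0.580). Cntn6, a contactin that binds latrophilin-1, had 6110, 5191, 3968 and 2258 in controls and 3023, 3247, 2480 and 2070 in mutants (log2 -0.62, limma adjusted p = 0.580), and the count tests with edgeR and DESeq2 did call it. Nrxn3, a presynaptic neurexin, had 31961, 56221, 43431 and 25845 in controls and 37063, 36296, 18183 and 16316 in mutants, groups that overlapped (log2 -0.58, limma adjusted p = 0.594).

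Markers of the captured lineage and of other cells were measured in the same libraries. Medial ganglionic eminence markers summed to 52198 to 176943 normalized counts in controls and 27734 to 83084 in mutants, with 3 of 11 called lower, and parvalbumin interneuron markers to 25884 to 128154 and 13931 to 43451, with 5 of 8 called lower. Somatostatin interneuron markers summed to 73278 to 587395 and 21563 to 238392, with 1 of 8 called lower. Excitatory neuron markers summed to 141174 to 176575 and 124983 to 153869, with 1 of 12 called in each direction, and oligodendrocyte markers to 225751 to 662317 and 196453 to 282086, with 3 of 8 lower. Endothelial and mural markers summed to 168896 to 266864 and 258166 to 277566, with 4 of 8 called higher. Of the caudal ganglionic eminence interneuron, astrocyte, oligodendrocyte precursor and microglia markers, 0 of 10, 0 of 8, 0 of 6 and 0 of 8 were called. Of all genes tested, 3.17% were called lower and 3.98% higher. Every marker of these lists was detected in every library, those of cells outside the Lhx6 lineage included. Their part in those values was not tested either, and fewer cells of a type cannot be told apart from less RNA per cell.

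Across the 8 libraries, the genes most like the highest member of each family by the mean of 8 libraries were found among 13394 genes with a mean of at least 100 in both genotypes, as a description. For Flrt2 they were Scap, Myef2 and Adam19, each with a Pearson r of 0.98, and r without the library labelled control replicate 1 was 0.89, 0.78 and 0.78. For Adgrl1 they were Ephx2 (0.93), Ppp1r9b (0.92) and Flrt1 (0.91), with 0.93, 0.94 and 0.93 without it. For Tenm1 they were Bid, Cntnap1 and Oprd1, each at 0.97 with and without that library. The points share depth, genotype and marker content, and no test was made of them.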

How the data were processed

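The table holds normalized counts, a signal deposited per library. The authors had aligned paired reads to mm10 with STAR 2.4.0, counted reads over the constitutive parts of Fast DB genes and scaled each library by its DESeq2 size factor. RNA was amplified with a kit that does not mark strand. Whole reads were recovered for 100% of values (tolerance 0.01), 51010687 to 80226984 per library, and all 8 columns matched a sample by name.

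Genes with a mean of at least 10 in at least 1 genotype (31171 of 56576) were fitted with limma 3.58.1 (lmFit, eBayes with trend, R 4.3.3) on log2(normalized count + 1), with Benjamini-Hochberg adjustment over all of them. That scale understates the change of low genes. Calls used the study's thresholds, p at most 0.05 and a fold of at least 1.5. The recovered reads were also tested with edgeR 4.0.16 and DESeq2 1.42.0. The procedure was tested on simulated data. Lengths came from GENCODE M21, matched by symbol for 16594 tested genes.

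Named were all 10 genes, Erbb4, Rpl22 and Lhx6, partners that were called or else the 3 of lowest p, and, for the highest gene per kilobase of each family, the 3 genes of highest r. Some genes of the partner list are not reported here, and its counts leave them out. The members and lists were chosen with earlier results of these data known. The residual-component, exon-union and latrophilin-ratio alternatives were chosen after seeing the data. Normalization, filter, pseudocount, trend, library weights, replicate block and leave-one-out alternatives were tried.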

Additional observations from a re-analysis of the deposited data

How the results depend on the processing

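With all libraries kept, 0 of the 10 genes were called in most alternatives. Library weights called 2 lower (Flrt1 and Adgrl1) and moved the median log2 fold change from -0.20 to -0.44. The first residual component as a covariate called 1 higher (Tenm3). Of all 31171 genes, library weights called 3630 in either direction and the residual component 3827, against 2229 in the main fit. Leaving out single libraries gave 0 to 1 called lower (Flrt1 without control replicate 3, Flrt3 without control replicate 5 or mutant replicate 3), 0 to 1 called higher (Adgrl2 without control replicate 4) and a median from -0.33 to -0.12. Over all genes, 1729 of 31195 were called without control replicate 3 and 3329 of 31168 without control replicate 4. The counts were 3767 of 31128 without control replicate 5 and 2514 of 31203 without mutant replicate 3. Of the 14 partners, quantile normalization called 1 (Unc5b), library weights 1 (Nrxn3), edgeR with and without a filter 1, DESeq2 1 and the residual component 1 (Cntn6 each), and leaving out single libraries 0 to 1 (Unc5b without control replicate 3 or 4, Cntn6 without control replicate 5). Quantile normalization called 2348 of all 31171 genes, and edgeR without a filter 2904 of 39658. The sign held for 8 of the 10 genes under every alternative run. It reversed for Flrt2 without control replicate 1 (leaving out single libraries gave -0.10 to 0.31) and under the replicate block, below. Control replicate 1 adds nothing to the genotype difference in that block either. The cause of the reversals was not tested.

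Replicate numbers 3, 4 and 5 occur in both genotypes. Deviations of same-numbered libraries correlated at 0.1004, 0.098 and 0.082 across genes. Control replicate 5 correlated slightly better with mutant replicate 4 (0.085), so the numbers were not taken to pair the libraries. Control replicate 3 correlated at 0.083 with mutant replicate 2, and at -0.115 and -0.113 with mutant replicates 4 and 5. Control replicates 4 and 5 correlated at -0.075 to -0.062 with mutant replicates 2 and 3, and at 0.082 to 0.098 with 4 and 5. Control replicate 1 lay between -0.041 and 0.034 with all mutants. What these sets of libraries share across genotypes was not tested. With the replicate block, 1 of the 10 was called lower (Tenm1) and 1 partner was called (Nrxn3). Of all 31171 genes, that block called 3164 in either direction, and 0 had an adjusted p under 0.05. Flrt2 and Tenm3 reversed to -0.068 and -0.015. The block takes the genotype difference from numbers 3, 4 and 5 alone. Libraries whose number occurs in 1 genotype, control replicate 1 among them, add nothing to it. In the fit without control replicate 1, the values were -0.10 for Flrt2 and 0.065 for Tenm3.

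Tenm3 had the fewest reads, with 114 in the library labelled control replicate 1. That library held 52785970 reads on genes. Control replicate 5 held fewer, 51010687, and had 663 reads of Tenm3. The part of depth in the Tenm3 values was not tested. Adjusted p-values depend on a spread estimated from 4 libraries per genotype, and the text gives no test of the latrophilin ratio.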
